A study of Arabidopsis thaliana with 6 samples.

Results

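The genes described here are AT1G52000, AT1G52100 and JAL33 (AT3G16450), which encode jacalin-related lectins, PYK10 (AT3G09260), which encodes a beta-glucosidase, and NAI2 (AT3G15950), which encodes a protein of the endoplasmic reticulum (ER) body. They were found through the array annotation as probe sets assigned to exactly 1 of these genes, which gave 5 probe sets, 1 per gene, of the 22810 on the array. The genes were picked with their difference between the genotypes in view, so this difference is given as a description and without a test. RNA came from whole seedlings of Arabidopsis thaliana, cultivar Col-0, at 9 days of age, either of the myb3r1 myb3r4 double mutant, mutated in both MYB3R1 and MYB3R4 per the labels, or of wild type. Both genotypes received no treatment and grew on sucrose-containing MS agar in constant light. Each of 3 experimental sets held 1 array of each genotype, 6 arrays in all. The mutant alleles are not stated in the labels, and no probe set was annotated to MYB3R1 or MYB3R4, so the genotype labels could not be checked on those transcripts.

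ER bodies are compartments of the endoplasmic reticulum that occur in plants of the cabbage order, and in Arabidopsis seedlings and roots they are filled with beta-glucosidase. PYK10 is the main enzyme stored there, and it acts on glucosides when tissue is damaged. NAI2 is needed for the bodies to form, and the transcription factor NAI1 is needed for the expression of PYK10 and NAI2. Jacalin-related lectins bind carbohydrates, and several of them assemble with PYK10 into large complexes once cells are broken. MYB3R1 and MYB3R4 are MYB factors best known as regulators of mitotic and cytokinesis genes.

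Each level is a log2 signal after division by the median of its own array, which puts a typical probe set at 0. The level of one probe set cannot be set against that of another, and levels are compared only between arrays. A difference is the double mutant minus wild type within a set, and a mean difference is the mean over the 3 sets. In whole seedlings, fewer cells of a type and less RNA per cell cannot be told apart. Nothing in the labels tells whether separate cultures were grown for each set; the p-values therefore reflect the spread among these 6 arrays, and that spread could be technical.

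Set 1 stood apart from the other sets in its RNA controls, mainly through its wild-type array. The mean 3' minus 5' signal of the actin, GAPDH and ubiquitin controls, a sign of how complete the labelled RNA is, was 2.37, 2.66 and 3.15 in the double mutant arrays of sets 1 to 3 and 1.83, 3.74 and 3.93 in the wild-type arrays. Of 13648 probe sets tested between the genotypes in limma, with the set as a block, 72 passed a Benjamini-Hochberg adjusted p of 0.05 (0.528%), of which 53 were higher (0.388%) and 19 lower (0.139%) in the mutant, and 17.4% had an unadjusted p under 0.05. Undoing the deposited division by the array median gave 41 higher and 33 lower, and an offset before the log 40 and 34. Over all tested probe sets the median difference was 0.058. Without the block 1 probe set passed, and without set 1 the count was 1107 (8.11%), of which 918 were higher in the mutant (6.73%). In sets 2 and 3 the control signal was lower in the mutant array than in the wild-type array. Genotype and RNA quality therefore ran together in the fit without set 1.

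Transcripts of all 5 genes were higher in the double mutant in every set. The lectin genes were about 2-fold higher and the ER body genes PYK10 and NAI2 were 1.26-fold and 1.33-fold higher. Quantile normalization lowered the log2 difference to 0.16 for PYK10 and 0.23 for NAI2, against 0.33 and 0.41 in the values as given. Among all tested probe sets, 26.3% were higher in the mutant in every set and 0.857% were at least 2-fold higher on average, a level that 3 of the 5 genes reached. The genes were chosen from this contrast, so nothing is read from these shares.

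**Figure D1:**
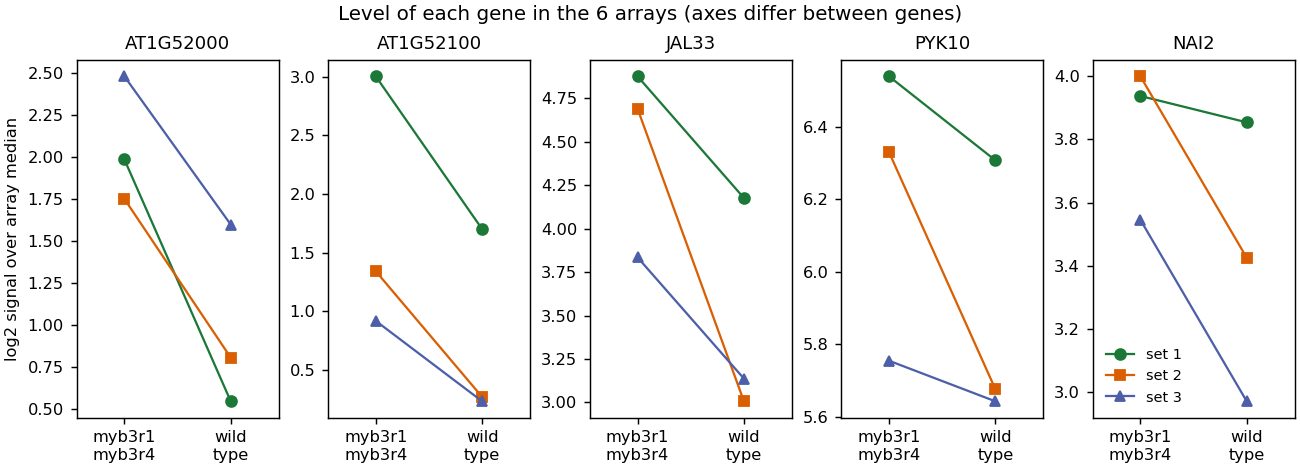
Log2 signal over the array median (vertical axis, scaled separately for each gene) of the 5 genes in double mutant arrays (left) and wild-type arrays (right); each line joins the 2 arrays of a set. Every line falls toward the wild-type side, and AT1G52000 is the gene whose 2 genotypes do not overlap.

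AT1G52000, a jacalin-related lectin gene, had levels of 1.99, 1.75 and 2.48 in the double mutant arrays of sets 1 to 3, against 0.55, 0.81 and 1.60 in the wild-type arrays. All mutant arrays lay above all wild-type arrays, and this was 1 of the 5 genes for which the genotypes did not overlap, a pattern shown with the mutant higher by 8.15% of all tested probe sets. Its differences were 1.44, 0.94 and 0.88 in sets 1 to 3, with a mean of 1.09 ± 0.31 (SD, n = 3), or 2.12-fold. The smallest and largest folds of a single set were 1.84 and 2.71. In both genotypes the array of set 3 was the highest.

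AT1G52100, a second lectin gene of the same chromosomal run, had levels of 3.0, 1.34 and 0.92 in the mutant arrays of sets 1 to 3, against 1.70, 0.27 and 0.23 in wild type. The genotypes overlapped, because the wild-type array of set 1 lay above the mutant arrays of sets 2 and 3. Within the sets the differences were 1.30, 1.07 and 0.69, with a mean of 1.02 ± 0.31 (SD, n = 3), or 2.03-fold. The spread between sets was 2.09 in the mutant and 1.47 in wild type, wider than the mean difference between the genotypes.

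JAL33 encodes a lectin found in the PYK10 complex. Its levels were 4.88, 4.69 and 3.84 in the mutant arrays of sets 1 to 3, against 4.18, 3.01 and 3.14 in wild type, and the genotypes overlapped at the wild-type array of set 1 and the mutant array of set 3. The differences were 0.70, 1.68 and 0.70, with a mean of 1.03 ± 0.57 (SD, n = 3), or 2.04-fold. Set 2 carried much of the mean, which was 0.70 without it. In that set the mutant array was nearly as high as that of set 1, while the wild-type array was the lowest of all 6.

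PYK10 had levels of 6.54, 6.33 and 5.75 in the mutant arrays of sets 1 to 3, against 6.31, 5.68 and 5.64 in wild type. Its difference was 0.23, 0.65 and 0.11, with a mean of 0.33 ± 0.28 (SD, n = 3), so that the SD over the sets was nearly as large as the mean. Without set 2 the mean was 0.17, and the mean over all 3 sets was 1.94 times that value. The wild-type array of set 1 lay above the mutant array of set 3, and 16.6% of all tested probe sets had a larger mean difference.

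NAI2 had levels of 3.94, 4.0 and 3.55 in the mutant arrays of sets 1 to 3, against 3.85, 3.43 and 2.97 in wild type. In set 1 the genotypes were close, at a difference of 0.083, while sets 2 and 3 both gave 0.57. The mean was 0.41 ± 0.28 (SD, n = 3), and 11.3% of all tested probe sets had a larger one. For NAI2, as for AT1G52100, JAL33 and PYK10, the wild-type arrays of sets 2 and 3 were the 2 lowest of the 6 and the mutant array of set 3 came next.

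**Figure D2:**
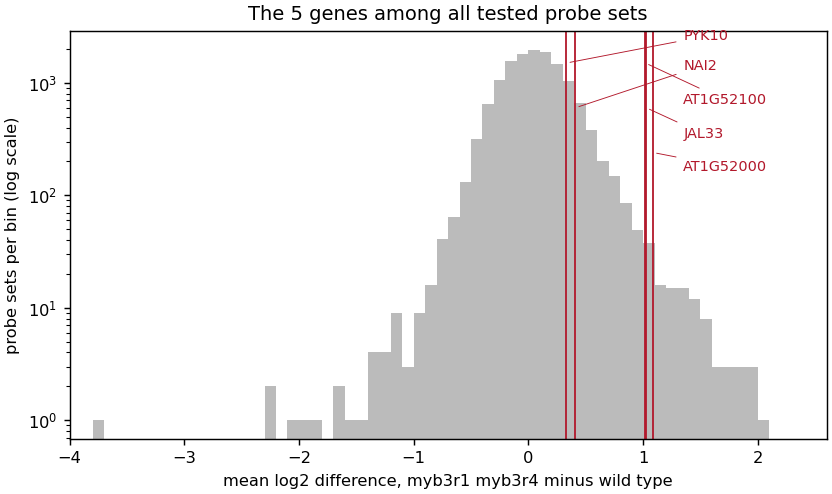
Histogram of the mean log2 difference, double mutant minus wild type, of all 13648 tested probe sets (vertical axis on a log scale), with a red line at each of the 5 genes. The 3 lectin genes lie between 1.02 and 1.09, in the upper tail, and PYK10 and NAI2 lie at 0.33 and 0.41, nearer the bulk of the probe sets.

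Averaged over the genotypes, 1 of the 5 genes passed a test between the sets, which is given as a description. The mean of both genotypes in a set does not use the genotype difference by which the genes were picked. It was compared between the sets with limma's F-test over all probe sets, a test chosen after the values had been seen. The error term of this test is the spread of the genotype differences over the sets. That spread may be small because of how the genes were picked, so their p-values are given as a description. For AT1G52100 the mean of both genotypes was 2.35, 0.81 and 0.58 in sets 1 to 3 (limma F-test, adjusted p = 0.00435). The other 4 genes did not pass, with adjusted p of 0.0572 for AT1G52000, 0.0690 for JAL33, 0.0771 for PYK10 and 0.122 for NAI2. So 1 of the 5 genes passed, beside 8.61% of all tested probe sets. Set 1 had the highest mean for 4 of the 5 genes, the exception being AT1G52000, whose set means were 1.27, 1.28 and 2.04. Among all tested probe sets 43.7% had their highest mean in set 1.

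The other genes of the ER body were then examined, and the mean differences of the tested ones were above 0. Of 11 listed genes other than PYK10 and NAI2, 7 had a probe set and 3 probe sets were bright enough to be tested. None of the 3 passed in limma, where 2 had an unadjusted p under 0.05, beside 17.4% of all tested probe sets, and their median difference was 0.63, beside 0.058 for all tested probe sets. The remaining 3 probe sets, of ATA27, BGLU19 and BGLU24, were too dim to test.

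NAI1, the basic helix-loop-helix factor that controls PYK10 and NAI2, had levels of 0.77, 0.57 and 0.71 in the mutant arrays, against -0.25, 0.28 and 0.14 in wild type. The genotypes did not overlap, a pattern shown with the mutant higher by 8.15% of all tested probe sets. The difference of NAI1 was 0.63 (SE 0.18, limma adjusted p = 0.171), largest in set 1 at 1.02. With the offset before the log it was 0.42. The probe set shared by BGLU21 and BGLU22, close relatives of PYK10 that cannot be told apart by it, had levels of 4.61, 3.69 and 3.87 in the mutant and 4.17, 2.68 and 2.71 in wild type. Its difference was 0.87 (SE 0.17, limma adjusted p = 0.0730), above 0 in all 3 sets, as for 26.3% of all tested probe sets. Without set 1 it passed at 1.08 (limma adjusted p = 0.00231), as did 6.73% of all tested probe sets in the same direction. BGLU25, a related beta-glucosidase gene, differed by 0.32 (SE 0.21, limma adjusted p = 0.454), with -0.18 in set 1 and 0.95 in set 2, and by 0.0011 without set 2.

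Of the lectins and lipase-like proteins of the PYK10 complex, 10 were listed beside JAL33 and 3 had a named probe set, all of which were tested. JAL34, JAL22 and JAL23 had differences above 0 in every set, as did 26.3% of all tested probe sets, and the median of the 3 was 0.83. None passed in limma with all sets, while all 3 had an unadjusted p under 0.05, beside 17.4% of all tested probe sets. Without set 1 all 3 passed, as did 6.73% of all tested probe sets in the same direction.

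JAL34, the neighbour of JAL33 on the chromosome, had levels of 4.84, 4.93 and 4.46 in the mutant arrays, against 4.37, 3.73 and 3.86 in wild type. The genotypes did not overlap, a pattern shown with the mutant higher by 8.15% of all tested probe sets. The difference of JAL34 was 0.76 (SE 0.17, limma adjusted p = 0.0982), and without set 1 it was 0.90 (limma adjusted p = 0.00836). JAL22 had levels of 3.92, 4.24 and 3.17 in the mutant and 3.55, 2.65 and 2.63 in wild type, a difference of 0.83 (SE 0.23, limma adjusted p = 0.159). As for JAL33, the difference of JAL22 was largest in set 2, at 1.59, and its mean was 0.45 without that set and 1.07 without set 1 (limma adjusted p = 0.339 and 0.00993). JAL23, separated from JAL22 by a single gene, differed by 1.08 (SE 0.29, limma adjusted p = 0.151), but the sets disagreed, with 0.018 in set 1 against 1.69 and 1.54 in sets 2 and 3; it was 1.62 without set 1 and 0.62 in a fit that includes the 3' minus 5' control signal.

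**Figure D3:**
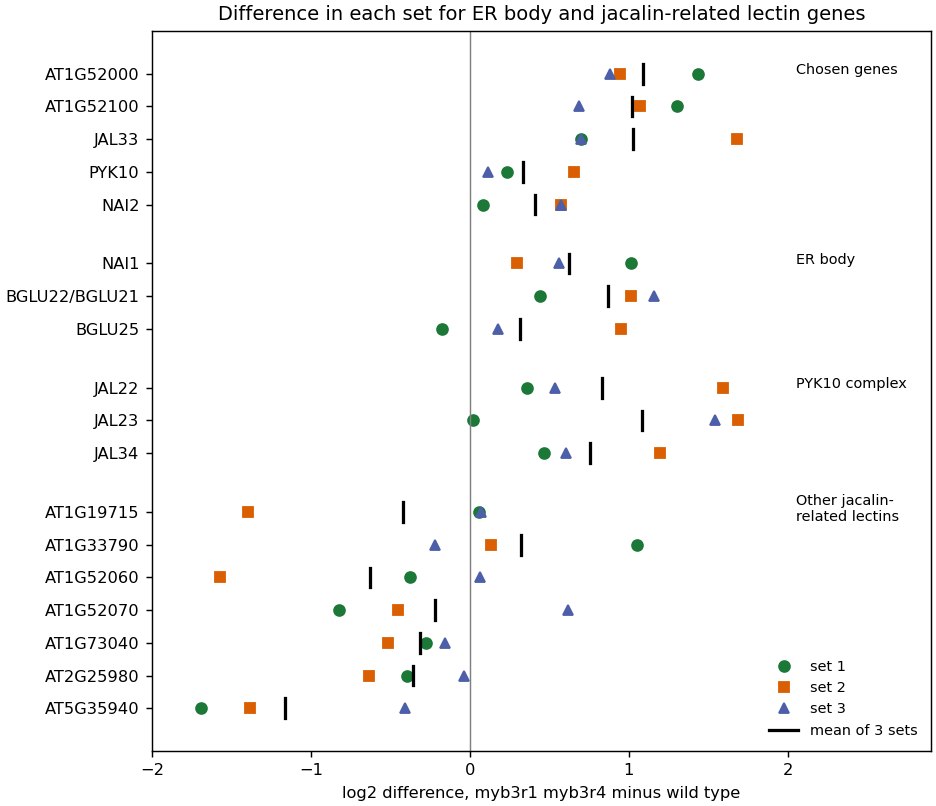
Log2 difference, double mutant minus wild type, in each of the 3 sets (symbols) and their mean (black bar) for the 5 chosen genes and every other tested gene of the ER body, PYK10 complex and jacalin lists. The ER body and PYK10 complex genes have means above 0, and 6 of the 7 other lectin genes have means below 0.

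Among the jacalin-related lectin genes outside the PYK10 complex, most tested genes had mean differences below 0, and none passed. The 3 lectin genes described first were picked with their difference in view, so nothing is read from the contrast with them. JAL34, JAL22 and JAL23, also jacalin-related lectin genes, were above 0 in every set, as were 26.3% of all tested probe sets. The list of other lectins holds 35 further genes, assigned from general knowledge of the family. The annotation used here gives most of them a locus tag alone. Of these 18 had a probe set, and 7 of their 16 probe sets were tested. Differences were below 0 for 6 of the 7 and above 0 for 1, with a median of -0.36, and 0 passed in limma in either direction, with 1 at an unadjusted p under 0.05, beside 17.4% of all tested probe sets. The gene above 0 was AT1G33790, at 0.32, and it was at -0.042 without set 1. The gene with the small unadjusted p was AT5G35940, with levels of -0.98, -1.18 and -1.44 in the mutant arrays, against 0.71, 0.21 and -1.03 in wild type. Its difference was -1.16 (SE 0.26, limma adjusted p = 0.0974). Without set 3 it was -1.54 (limma adjusted p = 0.00174), in a fit that called 44 of 13648 probe sets lower in the mutant. AT1G73040 and AT2G25980 had differences of -0.32 and -0.36, and AT2G25980 was at -0.22 without set 2. Together with AT5G35940 they were the 3 of the 7 genes below 0 in every set, as were 15.6% of all tested probe sets. The value of AT1G19715, -0.42, rested on set 2, where it was -1.40, and without that set it was 0.064.

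AT1G52000 and AT1G52100 lie in a run of 11 protein-coding genes on chromosome 1, from AT1G52000 to AT1G52130 in the RefSeq gene order, of which 10 are in the lectin lists. Of those 10, 5 had a named probe set. The other lectin genes of the run with a value lie between these 2, and their mean differences were below 0. AT1G52060 had levels of 1.05, -2.68 and -1.01 in the mutant arrays, against 1.42, -1.11 and -1.07 in wild type, a difference of -0.63 (SE 0.30, limma adjusted p = 0.311). It was -0.16 without set 2 and -0.98 without set 3. AT1G52070 differed by -0.22 (SE 0.25, limma adjusted p = 0.676), with values of both signs among the sets, and by 0.084 without set 1. AT1G52050, too dim to be tested, had differences of -0.27, -0.53 and 0.17. The intervening gene AR791, which is in neither list, had small differences of 0.22, 0.079 and 0.078. Whether the differences of AT1G52000 and AT1G52100 differ from those of their neighbours was not tested. In limma's F-test between the sets, chosen after the values had been seen, AT1G52060 and AT1G52070 had adjusted p of 0.00541 and 0.00702. Of all tested probe sets 8.61% passed this test. Like AT1G52100, AT1G52060 and AT1G52070 were highest in set 1 in both genotypes.

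**Figure D4:**
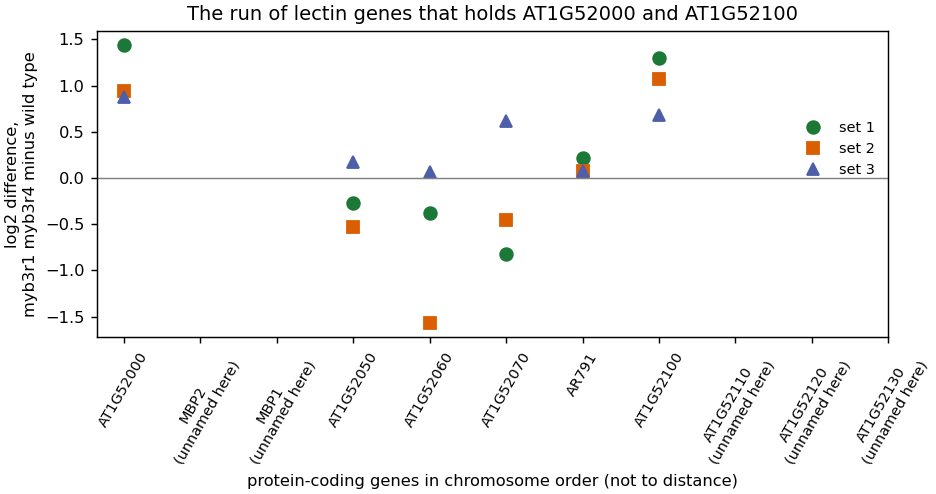
Log2 difference, double mutant minus wild type, in each set for the 11 protein-coding genes from AT1G52000 to AT1G52130, in chromosome order and not to distance; genes without symbols have no named probe set here. AT1G52000 and AT1G52100 lie above 0 in all 3 sets, while AT1G52050, AT1G52060 and AT1G52070 have values on both sides of 0.

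JAL33 belongs to another run on chromosome 3, of 10 protein-coding genes from NSP3 to JR1, 9 of them in the lectin lists. JAL33 and JAL34 were the 2 with a named probe set, and the nitrile specifier genes and PBP1 of the same run were not analysed here. JAL33 differed by 0.70, 1.68 and 0.70 in sets 1 to 3 and JAL34 by 0.47 in set 1 and 0.60 in set 3, and both were largest in set 2.

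Genes of the glucosinolate pathway, whose products are glucosides stored by the plant, and of general ER folding were few among the named probe sets. Of 15 listed genes of indole glucosinolates 1 was tested, UGT74B1, a glucosyltransferase gene of the core pathway, which differed by 0.32 (SE 0.16, limma adjusted p = 0.335). Its difference was 0.14 without set 2 and 0.14 with quantile normalization. BCAT4, which encodes the first enzyme of methionine chain elongation, had levels of 5.03, 5.04 and 5.17 in the mutant arrays, against 4.95, 4.21 and 4.57 in wild type, a difference of 0.50 (SE 0.17, limma adjusted p = 0.205). It passed without set 1, at 0.71 (limma adjusted p = 0.0138), as did 6.73% of all tested probe sets in the same direction. With quantile normalization BCAT4 was at 0.27. AT2G31790, a second gene of the aliphatic list, differed by 0.15 (SE 0.17, limma adjusted p = 0.679) and by -0.0050 with quantile normalization. The ER chaperone genes CRT1b, for a calreticulin, and ATERDJ3B differed by -0.047 (SE 0.14) and -0.076 (SE 0.16), with limma adjusted p of 0.884 and 0.830, and by 0.032 and 0.097 without set 1. None of the 8 listed myrosinase and specifier genes had a named probe set.

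Of 11 listed jasmonate response genes 2 were tested. They too were listed with earlier results of these data known, so their p-values are no independent support. The defensin gene PDF1.2 rose by 1.38 (SE 0.20, limma adjusted p = 0.0320), with 0.73, 1.60 and 1.82 in sets 1 to 3, and was not called without the set as a block or without the filter on dim probe sets. OPCL1, for an enzyme of jasmonate synthesis, differed by 0.71 (SE 0.25, limma adjusted p = 0.217), and by 1.58 in set 2, the set in which JAL33, PYK10 and JAL22 were largest too. It passed without set 1, at 0.94 (limma adjusted p = 0.0295), as did 6.73% of all tested probe sets in the same direction. Without set 2 OPCL1 was at 0.27.

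PYK10 and its relatives are known as transcripts of roots, so root and leaf markers were set beside them. Of 15 and 21 root markers in 2 lists, 2 and 6 had a named probe set, and 6 of these 8 were bright enough to be tested, all of peroxidase genes. The second list was added after the files had been seen but before its own values were. Their median level was 1.74, 1.21 and 0.70 in the mutant arrays of sets 1 to 3, against 2.49, 0.55 and 0.70 in wild type. The median difference was -0.56, 0.92 and 0.24 in sets 1 to 3, with 0, 6 and 4 of the 6 markers above 0. Averaged over the sets it was 0.15, single markers lay between -0.14 and 0.40, and 0 passed in limma (adjusted p from 0.530 to 0.875; 0 at an unadjusted p under 0.05). JAL33 and PYK10 were largest in set 2, where the root markers were also highest in the mutant relative to wild type. AT1G52000 and AT1G52100 were largest in set 1, at 1.44 and 1.30, where all 6 root markers were lower in the mutant.

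The 4 tested leaf photosynthesis markers, RCA, PRK, PSAE-1 and SBPASE, had differences above 0 in every set, with medians of 0.37, 0.29 and 0.33 in sets 1 to 3, and 0 passed in limma (adjusted p from 0.199 to 0.419; 3 at an unadjusted p under 0.05, beside 17.4% of all tested probe sets). With quantile normalization their mean differences were 0.026 to 0.21, against 0.20 to 0.40 in the values as given. The leaf list was chosen with earlier results of these data known, so its counts and p-values are a description. The 3' minus 5' control signal differed by 0.55, -1.07 and -0.78 between the genotypes in sets 1 to 3. In a fit that includes this control signal, an alternative added once the data had been seen, the mean differences were 1.24 for AT1G52000, 1.13 for AT1G52100, 0.84 for JAL33, 0.27 for PYK10 and 0.27 for NAI2. The part of tissue makeup in these differences was not tested.

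**Figure D5:**
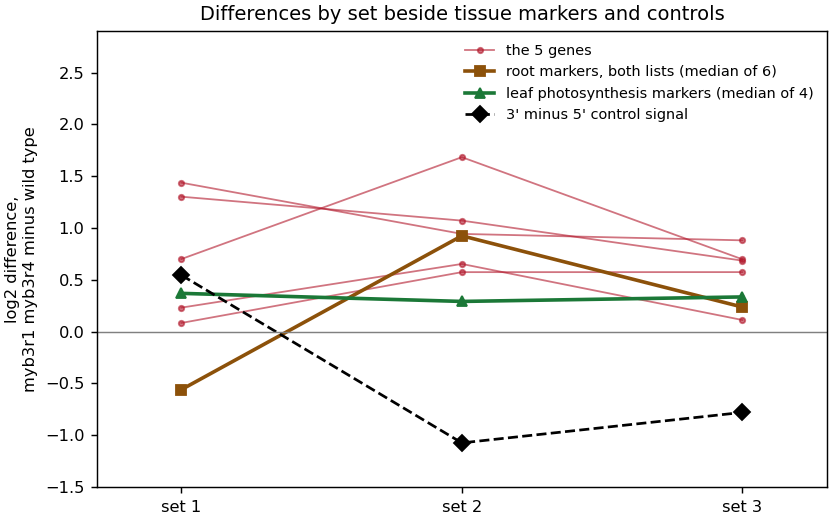
Log2 difference, double mutant minus wild type, in each set for the 5 genes (red), the median of 6 root markers (brown), the median of 4 leaf photosynthesis markers (green) and the mean 3' minus 5' control signal (black, dashed); lines join values of 1 gene or list and the sets have no order. The root markers lie at -0.56, 0.92 and 0.24 and the control signal at 0.55, -1.07 and -0.78 in sets 1 to 3. The 5 genes, picked with their difference in view, lie above 0 in every set, and nothing is read from that.

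The probe sets most like each gene were found by Pearson's r of the levels over the 6 arrays, among 7302 other tested probe sets of 1 gene. The arrays share genotype and set, so these values are a description. For AT1G52000 the closest was AT3G03420 (r = 0.992), with 1.61, 1.58 and 1.75 in the mutant arrays and 1.23, 1.29 and 1.57 in wild type. AT5G15200 was closest to AT1G52100 (r = 0.996), AT4G38540 to JAL33 (r = 0.997), AT4G08850 to PYK10 (r = 0.995) and AT1G69680 to NAI2 (r = 0.999). The mean profile of the 5 genes, each centred on its own mean, was 0.79, 0.34 and 0.029 in the mutant arrays and 0.039, -0.64 and -0.56 in wild type. Closest to this mean were AT1G21000 (r = 0.995), AT3G25600 (r = 0.991) and Hsp70-2 (r = 0.990). Of the tested family members, JAL34 had r = 0.95 and JAL22 r = 0.89 with the same profile, in places 96 and 369 of the 7302. JAL23, also of the PYK10 complex, had r = 0.57, in place 2149. The other lectin genes ran from r = 0.52 for AT1G33790 to -0.93 for AT1G73040, with AT1G52070 at 0.42 and AT1G52060 at 0.30. BGLU25 had r = 0.76. NAI1, the regulator of PYK10 and NAI2, had r = 0.53.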

How the data were processed

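Levels of 22810 probe sets in 6 Affymetrix arrays were used. The deposited values are log2 signals; per the submitters' processing notes they were summarised with MAS5, version and scaling not given in the sources used here. Each deposited column has a median of 0, and after taking the antilog (base 2) 100% of values below 3000 steps were whole numbers of 1 step (tolerance 0.02 step). Taking the step as 0.1 signal unit, 2% trimmed means were 500.04 to 500.05 and medians 185.55 to 217, so each array had been divided by its median. For 1 value that stood for a signal of 0 the smallest step of its array was used.

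Of 22746 probe sets that are not controls, 13513 carried 1 gene, 503 several and 8730 none in the platform annotation, and 13436 of those with 1 gene were renamed through RefSeq's TAIR10.1 gene table. Genotypes were compared with limma 3.58.1 under R 4.3.3 over 13648 probe sets, the brightest 60% by overall mean (set as a block, trended eBayes, Benjamini-Hochberg, threshold 0.05; SEs are of this fit). The labels name the shared set; after subtracting genotype means, arrays sharing a set correlated by 0.672, 0.275 and 0.617 over probe sets. On simulated data, 5 draws with 200 changed probe sets of 13648, 96.2% of 2-fold and 100% of 4-fold changes were recovered, with 14.2 false calls per draw. The simulated noise was independent between arrays and took the fitted variances as true, without differences in RNA quality. In the real arrays 117 probe sets were at least 2-fold higher on average, while 53 were called higher. A probe set that did not pass may therefore still differ by 2-fold.

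The 5 genes and all lists were chosen with earlier results of these data known. Named beside them are all tested ER body, PYK10 complex and lectin genes, and of other lists those called and the 3 with the largest differences. Alternatives were the block, the filter, quantile normalization, the median division undone, an offset of 50 signal units, and leaving out each set. Precision is limited by having 3 arrays per genotype. No sequences were analysed here.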

Additional observations from a re-analysis of the deposited data

How the results depend on the processing

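For the 5 genes, all 50 values under the alternatives kept their direction and lay within 1 SD of the reported difference. Much of this was fixed in advance. The block and the filter do not change a mean difference. Leaving out 1 set cannot turn a mean whose sets are all above 0, nor move it by 1 SD. Only the changes of scaling and the control covariate could have given another outcome. Leaving out 1 set gave 0.91 to 1.19 for AT1G52000, 0.88 to 1.19 for AT1G52100, 0.70 to 1.19 for JAL33, 0.17 to 0.44 for PYK10 and 0.33 to 0.57 for NAI2. Undoing the division by the array median moved the median of all tested probe sets by -0.12, and over that, quantile normalization and the offset the values were 0.88 to 1.02, 0.81 to 0.96, 0.83 to 0.90, 0.16 to 0.21 and 0.23 to 0.29 in the same order of genes.

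Without the replicate block, that is without the pairing by set, 1 probe set passed in place of 72, with no filter on dim probe sets 14, with the brightest 40% 43, and with the 3' minus 5' control covariate 348; leaving out 1 set gave 107 to 1107. PDF1.2, the 1 jasmonate gene called, was not called without the block (adjusted p = 0.739) or the filter (adjusted p = 0.114), which left 0 calls in that list. Leaving out 1 set gave 0 to 1 calls in the ER body list, 0 to 3 in the PYK10 complex, 0 to 1 in the other lectins, 0 to 1 in the aliphatic list and 1 to 2 in the jasmonate list. With the covariate, added after seeing the data, 2 ER body probe sets were called (NAI1 at 0.81 and that of BGLU21 and BGLU22 at 0.69), 1 of the PYK10 complex (JAL34 at 0.61) and 1 other lectin (AT5G35940 at -1.35).

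Directions turned for AT2G31790 with quantile normalization (-0.0050) and the covariate (-0.034). Leaving out 1 set gave values on both sides of 0 for AT1G19715 (-0.67 to 0.064, above 0 without set 2) and, above or below 0 in turn without set 1, for AT1G33790 (-0.042 to 0.59), AT1G52070 (-0.64 to 0.084), CRT1b (-0.11 to 0.032), ATERDJ3B (-0.19 to 0.097) and the root marker AT5G17820 (-0.59 to 0.23). The cause was not tested. Of 219 planned values of 25 other named probe sets, 203 kept direction and side of the threshold.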
